A study of Mus musculus with 2 samples.

Results

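EP300 loci with the enhancer mark H3K4me1 on a single side were examined in melan-a cells, an immortalized melanocyte line of the strain C57BL/6 Ink4a -/- for which no treatment is listed. Chromatin immunoprecipitation with sequencing (ChIP-seq) had been performed for EP300 (anti-p300 antibody, 10 ug) and for histone H3 monomethylated at lysine 4 (anti-H3K4me1 antibody, 2 ug). Each of the 2 samples represents 2 replicates, deposited as 2 EP300 peak lists and as 1 H3K4me1 region list for both of its replicates. Separate cultures are not named for the replicates, so the spread between the EP300 lists may be technical, and the data come from 1 cell line with no second condition.

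The members were selected on the positions of the deposited peaks and regions. A shared locus was the merged interval of overlapping replicate 1 and replicate 2 peaks, with an overlap of at least 1 bp. As its centre served the middle of the stretch common to the pair of peaks with the most tags, a tag being a sequenced read placed on the genome. A one-sided locus touched an H3K4me1 region, had its centre outside any region, and had a region within 1000 bp of the centre on exactly 1 side, called the marked side here. Of 3573 shared loci, 591 met these criteria, or 16.5% (Clopper-Pearson 95% interval 15.3% to 17.8%). For comparison, 2224 loci had a region within 1000 bp on both sides and are called two-sided, and 438 had their centre inside a region. A further 87 loci had a region on 1 side without touching any, and 233 had none within 1000 bp of the centre. Intervals cover counting error only. Because all loci come from the same libraries and the lists that chose them also supply their values, differences between these groups are described and not tested.

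EP300 (p300) is a histone acetyltransferase that DNA-binding transcription factors bring to enhancers and promoters, where it acetylates histones and assists transcription. H3K4me1 is laid down on nucleosomes of enhancers and of promoter flanks by methyltransferases of the KMT2 family. Where factors displace nucleosomes from the DNA they bind, the modified nucleosomes lie beside the bound site, so the mark commonly appears on both sides of a site with a gap between them. In melanocytes, pigment genes depend on such enhancers, bound by factors such as MITF and SOX10.

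The EP300 lists held 8451 peaks from 31439027 filtered tags in replicate 1 and 10351 peaks from 32355042 in replicate 2. The H3K4me1 list held 59923 regions that covered 38.6 Mb, or 2.02% of the effective genome size used for peak calling. How deeply H3K4me1 was sequenced is unknown, so a side without a region is a side on which none was listed, and not one shown to lack the mark. The same one-sided arrangement was found around 413 of the 4829 peaks called in replicate 1 alone (8.55%) and around 543 of the 6748 peaks called in replicate 2 alone (8.05%), with the midpoint of the peak as centre.

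On the marked side, H3K4me1 began close to the EP300 centre. The near edge of the region lay 6 bp to 969 bp away, the median being 337 bp and the quartiles 229 bp and 461 bp, and it was within 400 bp in 383 of 591 loci (64.8%). Two-sided loci had their nearer region at a median of 222 bp and their farther one at 408 bp, so the single region of a one-sided locus lay between these values. At 600 bp from the centre, 77.8% of one-sided loci were inside a region on the marked side, compared with 83.7% of two-sided loci in either direction. The highest H3K4me1 score of the marked region, the authors' ranking statistic, lay a median of 668 bp from the centre, against 616.5 bp for the nearer region of two-sided loci. The rule limits the distance to the near edge to 1000 bp in both classes and requires members to touch a region, so these distances describe the selected loci.

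**Figure D1:**
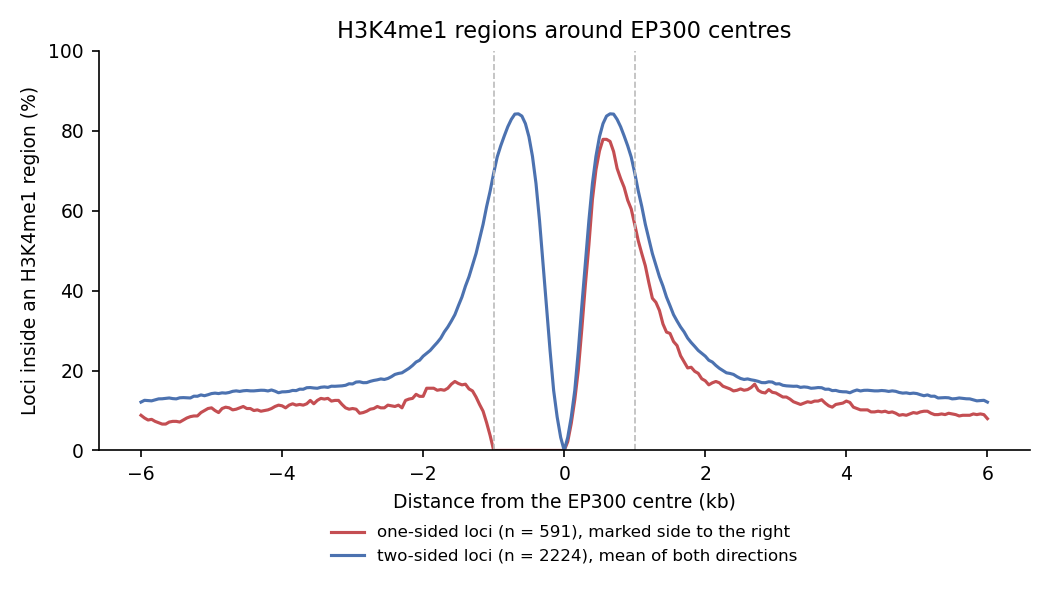
Percentage of loci inside an H3K4me1 region (vertical axis) by distance from the EP300 centre in kb (horizontal axis), for 591 one-sided loci turned so that the marked side is on the right and for 2224 two-sided loci averaged over both directions. Dashed lines mark 1000 bp on each side, within which the rule requires 0% on the left, and the curve of the one-sided loci reaches 77.8% at 600 bp on the right.

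The marked side was at the higher coordinate in 314 loci (53.1%, interval 49.0% to 57.2%) and at the lower coordinate in 277 (46.9%). Orientation along the chromosome was thus close to even. With 1 exception, each member touched its marked region, a median of 265 bp of the locus lying inside it. The peak of replicate 1 touched the marked region in 505 loci and that of replicate 2 in 545, and both did in 460 (77.8%). The exception, at chromosome 19, 40358009 to 40359810 (mm9), ended 189 bp short of the marked region and touched a region on its other side.

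The EP300 summits fell about as often on the marked as on the unmarked side of the centre. The summit, the position of highest tag density, lay a median of 2 bp from the centre on the unmarked side in replicate 1 (shift of -2 bp, interval of the median -17 bp to 9 bp) and 5 bp from it on the marked side in replicate 2 (interval -13 bp to 16 bp). Both summits fell on the marked side in 192 loci (32.5%) and both on the unmarked side in 190 (32.1%). The centre is the middle of the overlap of the peaks, which keeps summits close to it and, because the centre lies outside any region by the rule, mostly outside the marked region. Summits were inside that region in 12 loci in replicate 1 and 17 in replicate 2. At two-sided loci, where the nearer region was determined from the same centre, the median shift towards that region was -21 bp in replicate 1 and -26.5 bp in replicate 2.

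On the unmarked side the distance to the next region varied widely. It ranged from 1001 bp to 4972011 bp, the median was 6219 bp and the quartiles were 1749 bp and 32118 bp, and 1 locus had no further region on that side of its chromosome. The next region was within 2000 bp in 162 loci (27.4%), between 2000 bp and 10000 bp in 181 (30.6%) and farther away in 248 (42.0%). The members thus included both loci between regions that stood far apart and loci with no other region in the vicinity on that side. In the 162 loci of the first kind, the gap between the regions on the 2 sides had a median of 1650 bp, and at two-sided loci it had one of 650 bp, a difference that the limit of 1000 bp sets. Around 215 of the 591 centres (36.4%), the marked region was the only H3K4me1 region within 5000 bp in either direction, and around 139 (23.5%) the only one within 10000 bp. Over all 3573 shared loci, which include the members, 9.91% and 6.55% had exactly 1 region within these distances. At loci centred inside a region the shares were 13.2% and 8.22%. Two-sided loci have a region on each side by the rule and so cannot have only 1.

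**Figure D2:**
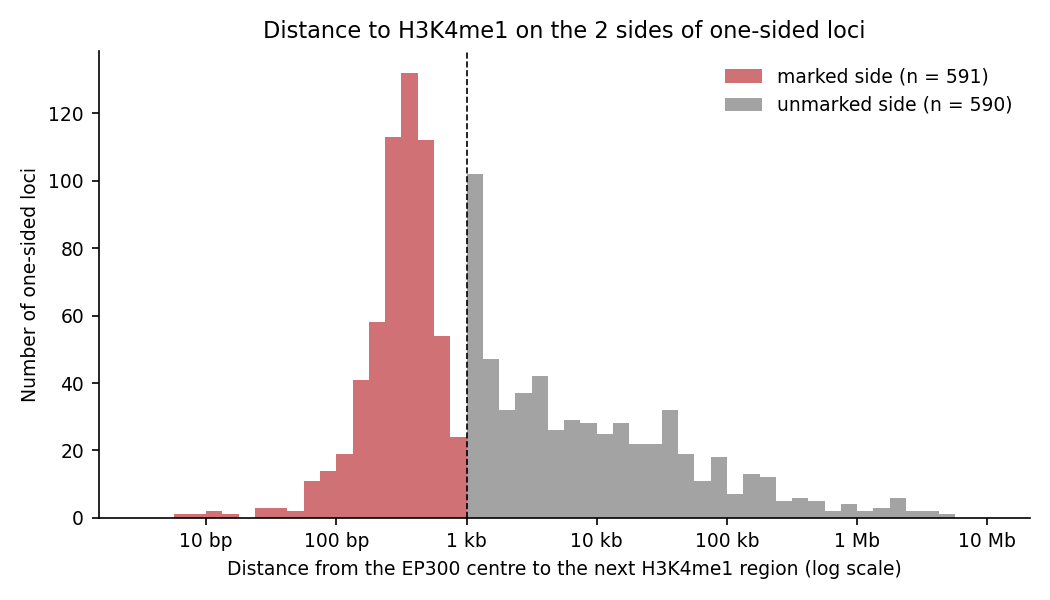
Number of one-sided loci (vertical axis) by the distance from the EP300 centre to the next H3K4me1 region on a log scale (horizontal axis), for the marked side (591 loci) and the unmarked side (590 loci). The dashed line is the limit of 1000 bp set by the rule; distances on the unmarked side have a median of 6219 bp and run up to 4972011 bp.

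Beyond a few kilobases the H3K4me1 coverage of the 2 sides was close. Between 1000 bp and 2000 bp from the centre, where the marked region itself often continued, regions covered 30.3% of the marked side and 14.0% of the unmarked side. The rule bars regions within 1000 bp on the unmarked side, so none could continue into this bin there. This difference is therefore partly set by the rule. Between 2000 bp and 3000 bp these values were 15.5% and 11.2%. From 3000 bp to 5000 bp they were 11.0% and 11.1%, and from 5000 bp to 10000 bp 9.08% and 8.48%. In the last 2 bins the number of loci with any region was also close, at 176 and 171, then 239 and 225 on the marked and unmarked side. Two-sided loci had higher coverage in these bins, at 15.2% and 11.9%, and loci with their centre inside a region had 16.9% and 13.9%. All of these values exceeded the 2.02% covered by the list as a whole.

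EP300 enrichment at one-sided loci was lower than at two-sided loci in the medians of both replicates. In replicate 1, one-sided loci had 23 to 443 tags with a median of 62, against medians of 69 at two-sided loci and 53 at loci centred inside a region. In replicate 2 they had 25 to 613 tags with a median of 72, against 76 and 59.5. The fold enrichment at the summit over the local background, the authors' own value for each peak, had medians of 7.19 in replicate 1 and 6.31 in replicate 2. The corresponding medians were 7.80 and 7.13 at two-sided loci, and 6.46 and 6.47 at loci centred inside a region. Over all 3573 shared loci, which include the members, they were 7.34 (interval 7.21 to 7.52) and 6.85 (interval 6.78 to 6.95), where the intervals of one-sided loci were 6.96 to 7.5 and 6.13 to 6.61. One-sided loci therefore lay below two-sided loci in both lists, with wide overlap, the quartiles of one-sided loci being 5.79 and 9.72 in replicate 1 and 5.17 and 8.58 in replicate 2.

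By the mean of the percentile ranks in the 2 lists, where 100 is the most significant peak, the median was 72.8 for one-sided loci (interval 71.2 to 75.8) and 78.6 for two-sided loci (interval 77.5 to 79.8), a difference of -5.82. With a limit of 500 bp in place of 1000 bp the difference was -0.25 (-1.65 to 1.22 from the interval of the one-sided median), and with only the upper 50% of each EP300 list it was -2.60. The lower rank thus depended on where the limit was set. Locus length was close in one-sided and two-sided loci, with medians of 1279 bp and 1285 bp. It had a median of 1229.5 bp at loci centred inside a region. At the 87 loci with a region on 1 side that touched none, which the rule leaves out of the members, it was 1119 bp.

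**Figure D3:**
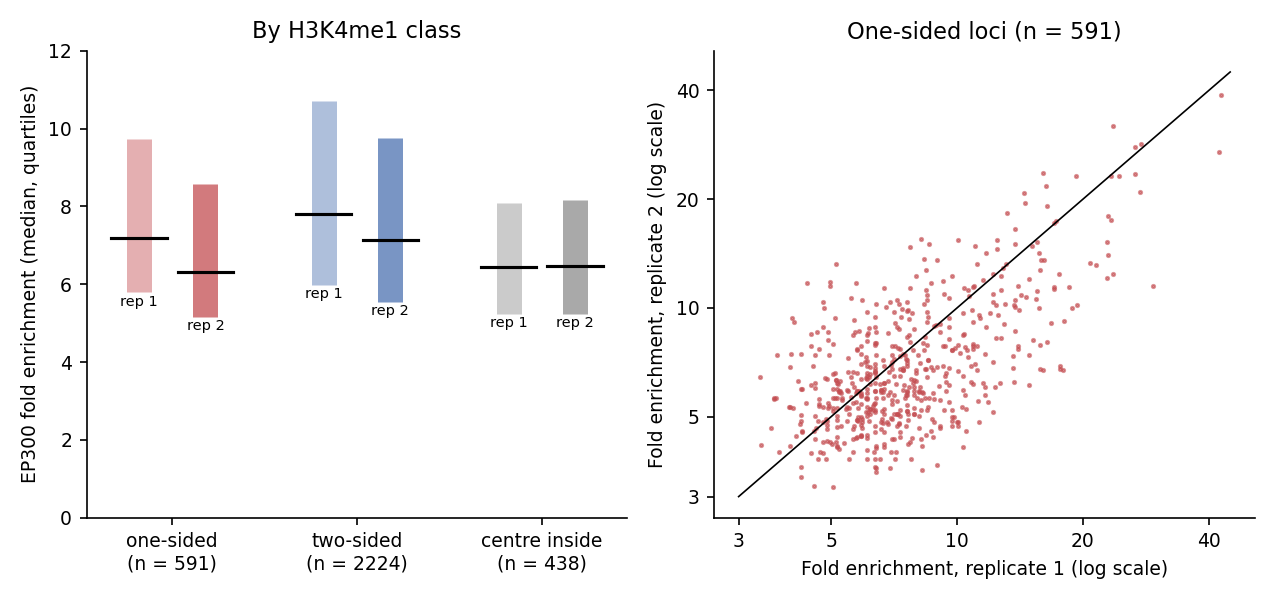
Left, EP300 fold enrichment (vertical axis) of one-sided, two-sided and inside loci in each replicate, as medians (black lines) and quartiles (bars); right, fold enrichment in replicate 1 against replicate 2 on log scales for the 591 one-sided loci, with the line of equal values. One-sided medians of 7.19 and 6.31 lie below the two-sided medians of 7.80 and 7.13, and points scatter on both sides of the line.

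The share of one-sided loci changed little with EP300 strength, while the other classes shifted. In the quintiles of EP300 rank among shared loci, from weakest to strongest, one-sided loci made up 17.4%, 17.6%, 17.4%, 14.3% and 16.1%. Over the same quintiles two-sided loci went from 51.5% to 72.6% and loci centred inside a region from 16.1% to 6.43%. Among loci with a region on 1 or both sides, the one-sided share went from 25.2% (interval 21.4% to 29.3%) in the lowest quintile to 18.1% (interval 15.2% to 21.4%) in the top one. It was 31.2% and 33.2% among peaks found in replicate 1 alone and in replicate 2 alone.

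The difference between the replicates was spread about as widely at the members as at two-sided loci. On the log2 scale, the fold enrichment of replicate 1 minus that of replicate 2 had a median of 0.17 and quartiles of -0.15 and 0.50. At two-sided loci the median was 0.11 and the quartiles were -0.245 and 0.467. The standard deviation was 0.511 at one-sided loci, 0.537 at two-sided loci and 0.534 over all shared loci, which include the members. As a description across loci of the same 2 libraries, fold enrichments of the replicates had a Spearman rho of 0.50 over the 591 one-sided loci and 0.54 over the 2224 two-sided loci. The highest ratio belonged to the locus at chromosome 15, 18854990 to 18856462, with 107 tags and 17.9-fold enrichment in replicate 1 and 115 tags and 6.72-fold in replicate 2. The locus at chromosome 3, 122183571 to 122186098, followed with 17.6-fold and 6.78-fold, and that at chromosome 7, 121890603 to 121892599, with 29.4-fold and 11.5-fold. The lowest ratio was found at chromosome 19, 5847428 to 5849551, with 48 tags and 4.38-fold enrichment in replicate 1 and 134 tags and 11.8-fold in replicate 2. Next were chromosome 14, 102391671 to 102393443, with 5.13-fold and 13.2-fold, and chromosome 3, 65382941 to 65384124, with 4.97-fold and 11.8-fold. At the first and the third of these 6 loci, the latter with 181 and 184 tags, tag counts were nearly equal although the fold enrichments differed.

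Over all members, the marked region was closer in width and rank to the lower of the 2 flanks of a two-sided locus than to the higher one. Its median width was 650 bp (quartiles 450 bp and 1050 bp), compared with 850 bp over all flanks of two-sided loci, 1100 bp for the wider and 650 bp for the narrower flank. The ratio of medians, one-sided over all two-sided flanks, was 0.765. In the authors' ranking, expressed as a percentile with 100 for the best region, the marked region had a median of 68.5, against 89.1 for the higher-ranked and 65.3 for the lower-ranked flank of two-sided loci, the higher and the lower being taken for each measure separately. The maximum log2 fold change given by the authors showed the same order, with medians of 3.95 for the marked region, 4.40 for the higher and 3.90 for the lower flank. The better of 2 flanks is higher, and the other lower, by construction. The marked region is therefore also set against all flanks, whose medians were 79.8 in rank and 4.16 in log2 fold change. The list as a whole had a median width of 500 bp and a median log2 fold change of 3.72.

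In the upper 4 quintiles of EP300 rank the marked region lay between the 2 flanks, and in the lowest it was just below the lower one. From the weakest to the strongest quintile, its median rank was 56.4, 63.0, 67.9, 76.1 and 78.4. The lower flank of two-sided loci had medians of 57.1, 60.4, 61.9, 68.0 and 71.0, and the higher flank 85.0, 86.7, 86.8, 90.6 and 92.4. All flanks of two-sided loci together had 73.8, 76.0, 77.1, 82.3 and 84.9. The higher and the lower flank are the extremes of 2 by construction, and all flanks together also lay between them in each quintile. The marked region was nearer to the lower flank than to all flanks in the first 3 quintiles, and nearer to all flanks in the upper 2. Its interval overlapped that of the lower flank in each quintile and that of all flanks in the upper 2. Across the 591 one-sided loci, the Spearman rho between EP300 rank and the rank of the marked region was 0.21, given as a description, and it was 0.17 between EP300 rank and the mean rank of the flanks over two-sided loci.

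**Figure D4:**
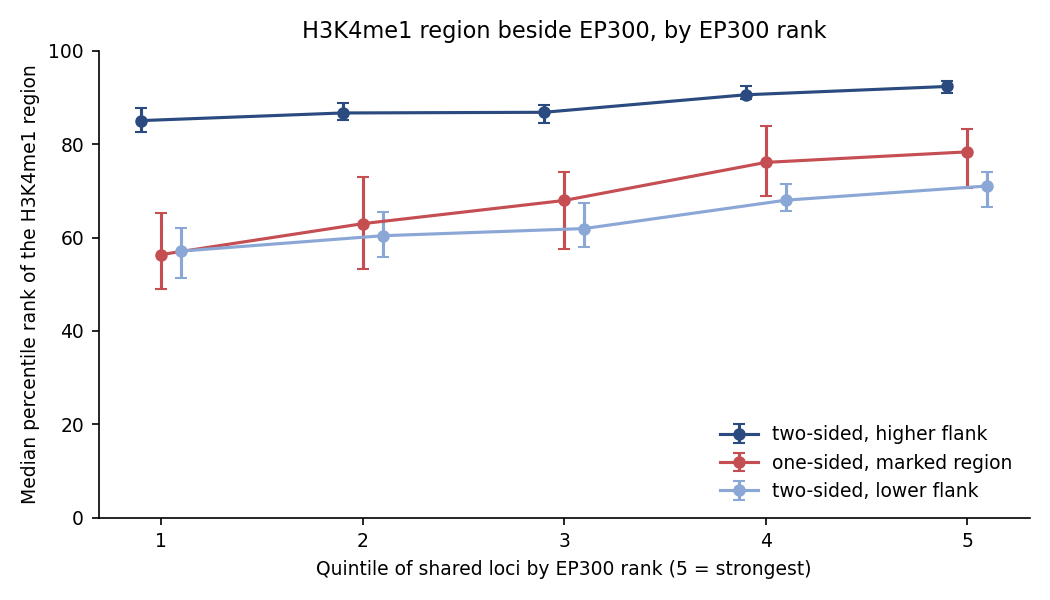
Median percentile rank of the H3K4me1 region in the authors' list (vertical axis, 100 is the best) by quintile of EP300 rank among shared loci (horizontal axis), for the marked region of one-sided loci and for the higher-ranked and lower-ranked flank of two-sided loci. Bars are binomial 95% intervals of the median; the marked region goes from 56.4 to 78.4, below the higher flank in each quintile.

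Some marked regions were among the best of the list and others were barely listed. Of the 591 regions, 203 (34.3%) were in the top 20% of the list and 50 (8.46%) in the lowest 20%, against 49.6% and 5.58% of the flanks of two-sided loci. There were 81 marked regions (13.7%) of at most 300 bp and 157 (26.6%) of over 1000 bp. The quartiles of width were 300 bp and 800 bp in the list as a whole, and 550 bp and 1250 bp over all flanks of two-sided loci. The highest score lay in the nearer 50% of the marked region in 56.9% of loci (interval 52.7% to 60.9%), and in 60.7% for the nearer flank of two-sided loci. Where the next region on the unmarked side was within 2000 bp, that region had a median rank of 56.9 and a width of 550 bp. Regions farther away had 43.7 and 450 bp.

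One-sided loci differed among themselves with the length of the unmarked stretch. The 162 loci with a region within 2000 bp had a median of 73.5 tags in replicate 1 and 90 in replicate 2, and the 248 loci with none within 10000 bp had 57.5 and 63.5. Their marked regions had median widths of 875 bp and 550 bp and median ranks of 77.0 and 56.6. The 181 loci between these limits had values between them, with 63 and 69 tags, a width of 750 bp and a rank of 69.9. Fold enrichment differed less, with medians of 7.43 and 6.78 in the 2 replicates for the nearest group and 7.03 and 5.92 for the farthest. Locus length moved with these values, since its median was 1537 bp in the nearest group and 1185 bp in the farthest, and its part in the tag counts was not tested.

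The 12 members with the best EP300 rank had 140 to 443 tags and 19.3-fold to 42.8-fold enrichment in replicate 1. In replicate 2 they had 195 to 613 tags and 14.0-fold to 38.9-fold enrichment. Their marked regions ranged from 300 bp to 4350 bp in width. Of these 12 regions, 10 were in the upper 50% of the H3K4me1 list, as were those of 400 of all 591 members (67.7%). The unmarked stretch was over 10000 bp in 5 of them and up to 2000 bp in 2.

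The strongest lay at chromosome 14, 118450921 to 118452798, with 384 tags in replicate 1 and 355 in replicate 2. Its marked region began 355 bp from the centre at 118452300, ran for 4350 bp and ranked 1027 among 59923 regions, whereas the next region on the other side was 7596 bp away. A strong EP300 site thus bordered a wide and highly ranked H3K4me1 region, the only one within 5000 bp. At chromosome 6, 137465859 to 137469548, a locus of 3690 bp had 443 and 613 tags and a marked region of 2100 bp that ranked 244. The locus extended 2591 bp from its centre on the unmarked side, where the next region was 3801 bp away.

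Strong EP300 also occurred beside narrow and weakly ranked regions. At chromosome 2, 45211638 to 45213643, EP300 was enriched 42.2-fold and 27.0-fold, while the marked region was 400 bp wide and ranked 37799. A region at 45213500 to 45214499, which the locus also touched, lay 1041 bp from the centre, just past the limit. On the same chromosome, the locus at 46507760 to 46508975 had 204 and 207 tags and a marked region of 300 bp that ranked 42243. All 4 regions within 5000 bp of its centre lay on the marked side, and the nearest on the unmarked side was 145666 bp away. These 2 were the members among the 12 whose marked regions ranked below the upper 50% of the list.

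At 3 further loci among the strongest, the marked region was near the members' median of 650 bp in width, and no region followed on the other side for 14600 bp or more. At chromosome 10, 38272754 to 38274387, with 283 and 284 tags, the marked region was 650 bp wide and the unmarked stretch 32193 bp. At chromosome 13, 39596905 to 39598458, with 209 and 195 tags, the values were 650 bp and 26595 bp. At chromosome 9, 79860087 to 79861700, with 140 and 216 tags, they were 700 bp and 14600 bp. In all 3, the marked region was the only one within 5000 bp of the centre.

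The remaining strong members had neighbours of both kinds. The locus at chromosome 4, 80465062 to 80466819, had 372 and 317 tags, a marked region of 2100 bp and an unmarked stretch of 20155 bp. That at chromosome 10, 10188273 to 10190992, had 281 and 401 tags and regions on both sides, 408 bp and 1293 bp from the centre, the second past the limit. At chromosome 1, 92813793 to 92815577, EP300 had 227 and 208 tags, with regions 744 bp and 3607 bp from the centre. At chromosome 13, 40009958 to 40012087 had 230 and 243 tags with 840 bp and 5961 bp, and 51443314 to 51445001 had 197 and 205 tags with 416 bp and 3185 bp. Another shared EP300 locus lay 2712 bp from the last of these, and another 3158 bp from the locus at chromosome 10.

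**Figure D5:**
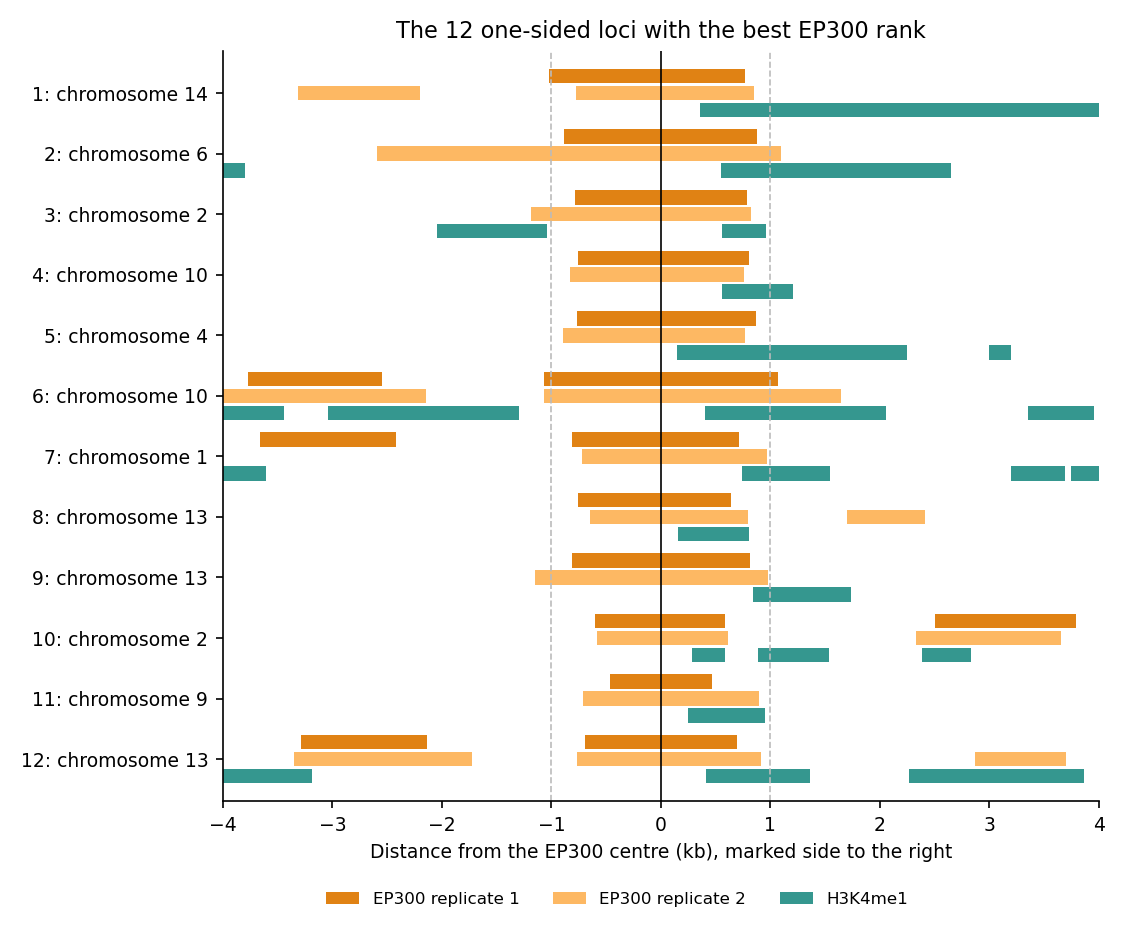
Deposited EP300 peaks of replicate 1 and replicate 2 and H3K4me1 regions around the 12 one-sided loci with the best EP300 rank, as distance from the EP300 centre in kb (horizontal axis) with the marked side to the right and 1 locus per line. Features are clipped at 4 kb and dashed lines mark 1000 bp. By the rule, no H3K4me1 region lies between the centre and the left dashed line at any of them.

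The widest marked region, at chromosome 7, 121891650 to 121898649, was 7000 bp wide and ranked 509. It bordered the locus at 121890603 to 121892599 with 181 and 184 tags. Next came the region at chromosome 6, 146878200 to 146883649 (5450 bp), beside a locus with 102 and 108 tags and 6.36-fold and 5.20-fold enrichment. The region at chromosome 14, 26281750 to 26286699 (4950 bp), ranked 768 but stood beside a weak locus with 40 and 35 tags. At chromosome 3, the region at 101199100 to 101203699 (4600 bp) lay beside a locus with 66 and 105 tags, and the fifth was the region of the strongest member described above. Wide marked regions thus accompanied both strong and weak EP300.

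The longest unmarked stretches belonged to loci of low or moderate enrichment. On chromosome X, the locus at 85370615 to 85371724 had 42 and 40 tags and was 4972011 bp from the next region on its unmarked side. On chromosome 12, loci at 41242733 to 41243594 (28 and 36 tags) and 37236210 to 37237327 (62 and 75 tags) had stretches of 4104424 bp and 2818002 bp. On chromosome 3, the locus at 42045045 to 42045985 had 41 and 50 tags, a marked region of only 100 bp and a stretch of 3221006 bp. The fifth, at chromosome 8, 60451522 to 60452636, had 63 and 32 tags and 2659901 bp. Their EP300 enrichment was between 4.65-fold and 8.28-fold in replicate 1 and between 4.87-fold and 5.95-fold in replicate 2.

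Sharing of the marked region with another EP300 locus was counted for the members only, so these counts have no share over other loci beside them. The marked region also lay within 1000 bp of the centre of another shared locus in 17 cases (2.88%), and in 0 of 591 did it contain the centre of one, which by a limit of 3 counts allows a share of up to 0.508%. A member at each end was found at 2 regions. The first, at chromosome 9, 107511750 to 107514499, was 2750 bp wide, ranked 1604 and separated a locus with 44 and 91 tags from one with 29 and 61. The second, at chromosome 4, 129853000 to 129853399, was 400 bp wide. It lay between the centres, 1326 bp apart, of a locus with 109 and 111 tags and one with 102 and 68 tags. These loci covered 356 bp and 21 bp of it.

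Other EP300 loci near the members lay on both sides, with more of them on the marked side. The next shared locus was within 10000 bp of the centre of 99 one-sided loci (16.8%, interval 13.8% to 20.0%), compared with 20.5% of two-sided loci and 28.5% of loci centred inside a region. It was on the marked side in 57 of these 99 (57.6%, interval 47.2% to 67.5%), and in 34 of the 52 within 5000 bp (65.4%, interval 50.9% to 78.0%). Those 52 were 8.80% of the members, where two-sided loci had 10.3% and loci centred inside a region 16.0%. The cause of the uneven sides was not tested. Further peaks of replicate 1, shared or not, were found within 5000 bp on the marked side of 48 loci and on the unmarked side of 34. For replicate 2 these numbers were 62 and 52.

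By chromosome, the share of shared loci that were one-sided ranged from 10.4% on chromosome 11 (19 of 182, interval 6.40% to 15.8%) to 26.9% on chromosome X (7 of 26, interval 11.6% to 47.8%). Chromosome 10 held the largest number, 47 of 203 (23.2%, interval 17.5% to 29.6%). Its interval did not include the overall share of 16.5%, and neither did that of chromosome 11. With 20 chromosomes set side by side and loci that are not independent, no order was read from these shares.

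Near the limits of the rule, the values of members and other loci ran together. The members with the nearest region on the unmarked side had it at 1001 bp (chromosome 14, 58378997 to 58380114, 56 and 102 tags) and 1003 bp (chromosome 11, 78441265 to 78442722, 45 and 75 tags). The two-sided loci just inside the limit had their farther region at 1000 bp (chromosome 11, 75961480 to 75963127, 41 and 81 tags) and 998 bp (chromosome 5, 92805316 to 92807133, 86 and 116 tags). Within 100 bp of the limit there were 41 members on one side and 63 two-sided loci on the other. The member with the farthest marked region, 969 bp away, was at chromosome 17, 8717085 to 8719079 (88 and 83 tags). Just outside, a locus at chromosome 13, 110067671 to 110069983 (83 and 112 tags), touched a region that began 1025 bp from its centre. With the MACS summit of replicate 1 as centre, 560 of the 591 loci were still one-sided, with that of replicate 2 553, and with both of them, each in turn, 538 (91.0%).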

How the data were processed

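ChIP-seq peak lists of melan-a cells were used, in mm9 coordinates per the submitters' processing notes. EP300 peaks were called by the authors with MACS 1.4.1, replicate by replicate with a control library each, at a p-value threshold of 1e-05, per the file headers. Per the file headers, each peak has a tag count, a significance score of 10 times the -log10 p-value, a fold enrichment ratio over the local background level and an FDR in percent. The deposited H3K4me1 list gives a score (the ranking statistic), a log2 fold change, a -log10 p-value that stops at 100 and an FDR as a fraction. For its caller, depth and pooling, and for the aligner, the sources used here give nothing.

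Loci were classified and summarised with Python 3.11.15, pandas 2.3.3 and scipy 1.17.1. The code was tested on simulated data. Shares have Clopper-Pearson 95% intervals and medians binomial order-statistic intervals. Coverage was read every 50 bp. Percentile ranks were taken within each deposited list. Named loci were the 12 members with the best mean EP300 rank, the 5 with the widest marked region, the 5 with the longest unmarked stretch, the 3 with the highest and the 3 with the lowest replicate ratio, regions with 2 members, and loci at the limits of the rule. Alternatives were another centre, windows of 500 bp and 2000 bp, 50% overlap, the upper 50% of each list, joined regions, no overlap with a region required and each EP300 list alone. The members and lists were chosen with earlier results of these data known. Genes and sequences at the loci were not analysed here, because no annotation of this build was used.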

Additional observations from a re-analysis of the deposited data

How the results depend on the processing

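The number of one-sided loci was 591, but 1089 (30.5% of shared loci) with a window of 500 bp and 970 (27.1%) with the upper 50% of H3K4me1 regions. With a window of 2000 bp 12.1% of shared loci were one-sided, and with no overlap with a region required 19.0%. Over all peaks of a single list, 1091 (10.5%) were one-sided without EP300 replicate 1 and 926 (10.96%) without EP300 replicate 2. The difference in EP300 percentile rank from two-sided loci was -0.25 with the 500 bp window (-1.65 to 1.22 from the interval of the one-sided median, which spans 0), -2.60 with the upper 50% of both EP300 lists, and -10.5 to -10.2 in the single lists. The ratio of H3K4me1 widths was 0.833 with the 500 bp window and 0.85 with the upper 50% of H3K4me1 regions. The difference in coverage between the marked and the unmarked side, from the window to 5000 bp, was 5.08 percentage points and 8.35 with the upper 50% of H3K4me1 regions. No region can run past the window on the unmarked side, so the rule itself sets part of this difference. From 3000 bp to 5000 bp the difference was -0.14 percentage points among the members. The window and the shorter lists change by construction which regions count as present; the cause of the smaller rank differences was not tested. With the mean of the summits as centre 564 of 614 one-sided loci were among the 591. No paired analysis was possible because the H3K4me1 replicates were deposited as 1 list. The unknown depth of H3K4me1 limits what an unmarked side shows.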
